A study of Mus musculus with 2 samples.

Results

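Of the 38 genes described here, which encode chaperones, disulfide enzymes and degradation factors of the endoplasmic reticulum (ER), 37 were named on the array, and all 37 were above the floor on both arrays, out of 12393 genes named in all. They were taken from a list of symbols, matched to the array's platform annotation by current symbol or older synonym, and divided by textbook role into 16 chaperones and cofactors, 10 disulfide enzymes and 12 genes of ER-associated degradation. Hspa13 had no probe set named here and was not analysed. Each gene was represented by its brightest probe set, a probe set being a group of short oligonucleotide probes read together as 1 value.

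Pancreatic islets of mice 2 days after birth were compared on Affymetrix mouse 430A arrays, with 1 array for wild-type mice and 1 for PERK knockout mice. Strains and gender are labelled as mixed for the wild type, and the knockout label gives the genotype and age. Both preparations were digested with collagenase P. The labels do not state the strain or sex of the knockout mice, the part of the gene that was removed, or any pooling of pups. With 1 array per genotype there was no spread between animals and no test. Each ratio below, log2 of knockout over wild type, compares these 2 arrays.

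A protein that enters the ER is folded by chaperones such as BiP and by lectin chaperones that hold its sugar chains, and disulfide enzymes join its cysteines. A protein that stays misfolded is pulled back through the membrane, tagged with ubiquitin and destroyed by the proteasome, a route called ER-associated degradation. Beta cells fold large amounts of proinsulin, which needs disulfide bonds. PERK, encoded by Eif2ak3, is an ER membrane kinase that slows translation initiation when unfolded protein accumulates. The other branches of that response, through ATF6 and through IRE1 and XBP1, induce many chaperone and degradation genes, often through a promoter sequence called the ER stress element (ERSE).

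The ERSE, spelled CCAAT, then any 9 bases, then CCACG, was found in a larger share of these genes than of promoters at large. Its matches are shown as a description of the promoters. The genes were not chosen by promoter sequence, but the element is known from chaperone genes such as Hspa5. Its larger share here is therefore not independent of the choice of genes. RefSeq promoter windows (GRCm38.p6, 250 bases before to 50 bases after a start site) were available for 32 of the 38 genes. On either strand, 10 of these 32 genes (31.2%) held the element, against 37 of 27025 genes (0.137%) in the whole table and 0.119% of its 32851 windows. The matches began between -212 and -44 relative to the start site, and Hsp90b1 held a pair of them. Each is given 5′ to 3′ on the gene's strand, with the element in capitals; it reads CGTGG first where it lies on the opposite strand.
Hspa5, chr2:34772013-34772055, plus strand: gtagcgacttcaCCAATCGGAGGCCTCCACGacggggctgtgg
Calr, chr8:84847063-84847105, minus strand: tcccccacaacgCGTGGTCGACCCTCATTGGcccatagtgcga
Derl3, chr10:75893230-75893272, plus strand: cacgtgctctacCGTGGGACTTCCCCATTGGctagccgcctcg
Hsp90b1, chr10:86705626-86705668, minus strand: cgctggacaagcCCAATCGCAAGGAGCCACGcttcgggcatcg
Hsp90b1, chr10:86705521-86705563, minus strand: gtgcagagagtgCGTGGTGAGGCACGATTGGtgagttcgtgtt
Canx, chr11:50325788-50325830, minus strand: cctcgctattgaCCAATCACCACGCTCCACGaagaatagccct
Pdia6, chr12:17266479-17266521, plus strand: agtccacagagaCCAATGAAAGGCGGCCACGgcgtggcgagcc
Ero1b, chr13:12565670-12565712, plus strand: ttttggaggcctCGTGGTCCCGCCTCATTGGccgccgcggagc
Dnajc3, chr14:118937815-118937857, plus strand: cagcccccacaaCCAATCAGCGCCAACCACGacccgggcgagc
Creld2, chr15:88819508-88819550, plus strand: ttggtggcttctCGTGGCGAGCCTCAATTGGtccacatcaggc
Syvn1, chr19:6046520-6046562, plus strand: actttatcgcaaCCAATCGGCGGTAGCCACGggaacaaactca

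A shorter related element, ERSE-II (ATTGG, any 1 base, then CCACG), was found in 2 of the 32 genes (6.25%) and in 0.0444% of all genes. These genes were Herpud1, and Dnajb11, whose match began 7 bases after the start site; Dnajb11 had the lowest ratio of all members.
Herpud1, chr8:94386365-94386399, plus strand: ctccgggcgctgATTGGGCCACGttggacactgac
Dnajb11, chr16:22857840-22857862, plus strand: tccccggcggcgATTGGCCCACG
The 150 bases before the start site of Hspa5, the gene of BiP, are shown because this is the best known ERSE promoter; capitals mark the 1 exact match. The stretch lies at chr2:34771940-34772089 on the plus strand.
Hspa5: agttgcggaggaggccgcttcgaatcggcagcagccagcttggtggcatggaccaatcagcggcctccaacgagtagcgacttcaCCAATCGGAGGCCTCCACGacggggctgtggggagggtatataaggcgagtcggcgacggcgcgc
The core of the unfolded protein response element (TGACGTGG) was found in 3 of 32 genes (Txndc5, Ube2j1 and Vcp, 9.38%) against 0.714% of all genes. The ATF4 composite element (TGATGNAA) was found in Herpud1 and Txndc5 (6.25% against 4.51% of all genes). In the windows of these 32 genes no match of one element overlapped a match of another. A match describes the letters in this window and is not evidence of binding.

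The members as a whole differed little between the arrays. Across the 37 genes the median log2 ratio was -0.08, and 25 had a ratio below 0. Over all 8133 measured genes, those above the floor on both arrays, the median was 0.03 and 45.1% were below 0. Bright genes leaned lower in general: in the brightest quartile of measured genes, which held 28 of the 37 members, 55.6% were below 0 with a median of -0.03, against 19 of those 28 members with a median of -0.08. Centring each array on its median instead put 29 of 37 members (78.4%) and 59.3% of all measured genes below 0. Only Dnajb11 and Edem1 were at least 1.5-fold lower, where 2.95% of measured genes were, and no member was 1.5-fold higher, where 4.19% were. Dnajb11 alone was past 2-fold, and the shares over all measured genes at that limit were 0.652% lower and 0.516% higher. Just short of the 1.5-fold limit (0.58 on the log2 scale) lay Nploc4 at -0.57 and Creld2 at 0.55; Nploc4 passed it with median centring, quantile normalisation and loess, and Creld2 with quantile normalisation.

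**Figure D1:**
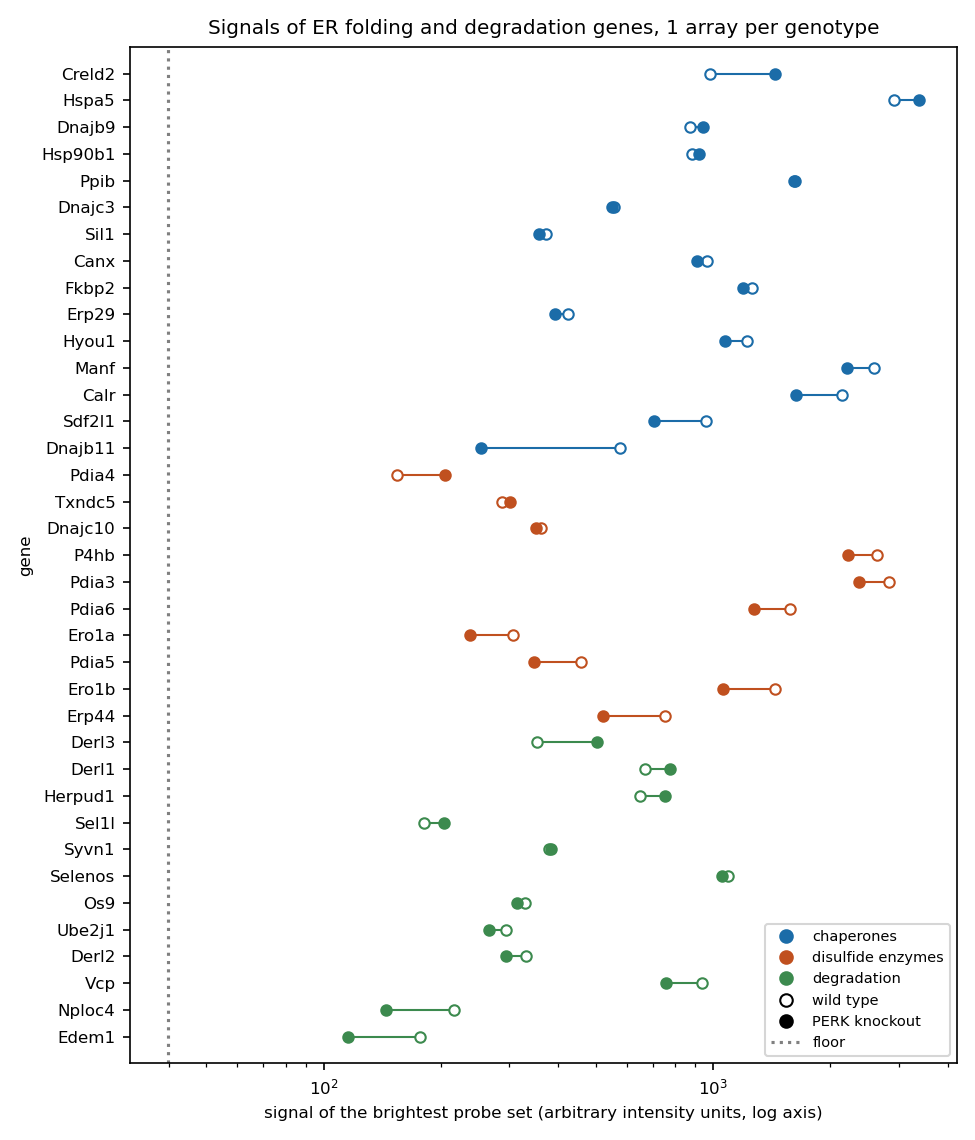
Signal of each member's brightest probe set (x axis, arbitrary intensity units, log axis) in wild type (open points) and PERK knockout (filled points), with genes on the y axis coloured by role and ordered by ratio. Every member lies above the floor of 39.8 (dotted line), and the widest gap on the log axis is that of Dnajb11, from 576.3 to 253.5.

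The error available was the disagreement between probe sets of the same gene, with an SD of 0.26 on the log2 scale over 2597 genes and 0.20 in their brightest quartile. It covers disagreement between probe sets read on the same arrays. A shift shared by a gene's probe sets cancels out, so shared differences between hybridisations, animals or RNA preparations are not covered. By the SD of 0.26, 22 of 37 members lay within 1 SD of 0. Lower by more were 12 members, and 3 were higher by more. Over all measured genes these shares were 15.0% and 21.9%. Members such as Hspa5 (0.22) and P4hb (-0.24) lay between 0.20 and 0.26 from 0, so these counts depend on the SD used. The 12 comprised 6 of the 10 disulfide enzymes, 3 chaperones and 3 degradation genes. A second probe set above the floor on both arrays was available for 20 members, and for 11 of them (55.0%) it had the same direction as the brightest, against 61.2% of all genes with such a pair.

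Dnajb11 was the only chaperone past 1.5-fold. The chaperones' median was -0.08 over 15 genes, with 10 below 0, and quartiles of -0.21 and 0.04. Dnajb11, an ER DnaJ protein that delivers unfolded chains to BiP, went from 576.3 in wild type to 253.5 in the knockout, a log2 ratio of -1.18 (2.27-fold lower). It was the 30th lowest of the 8133 measured genes. Dnajb11 has 1 probe set named here, so no second one bears on this value.

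BiP and its other partners had ratios on both sides of 0. Hspa5 went from 2908.5 to 3387.3 (0.22), and its second probe set from 2105.7 to 2008.0 (-0.07). The other ER DnaJ chaperones were Dnajb9, which assists BiP in restraining IRE1, from 872.6 to 942.3 (0.11), and Dnajc3, a BiP cochaperone also described as an inhibitor of PERK, from 556.5 to 551.3 (-0.01). The 3 other measured probe sets of Dnajc3 spread from -0.22 to 0.37, so its direction is not settled. Sil1, a nucleotide exchange factor of BiP, went from 372.3 to 358.2 (-0.06). Hyou1, the large ER chaperone that also exchanges BiP's nucleotide, went from 1221.0 to 1072.7 (-0.19), with -0.55 on a dimmer probe set. Sdf2l1, found in a complex with BiP and ER DnaJ proteins, went from 960.3 to 703.5 (-0.45). Only 5.48% of measured genes had a lower ratio than Sdf2l1, which also rests on 1 probe set.

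Among the lectin chaperones, calreticulin and its membrane-bound relative calnexin had ratios below 0. Calr went from 2143.1 to 1630.2 (-0.39), with -0.18 and 0.01 on its other probe sets. Canx went from 963.7 to 909.3 (-0.08), and its others gave -0.07 and -0.20. Hsp90b1, the ER member of the HSP90 family, went from 882.4 to 919.8 (0.06), with 0.09 on its second probe set.

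Secreted or luminal cofactors ran in both directions. Creld2, an ER stress-inducible secreted protein, had the highest ratio of all members, from 981.5 to 1438.7 (0.55, 1.47-fold), on its only probe set. Manf, an ER stress-inducible factor that is secreted and needed by beta cells, went from 2590.6 to 2203.6 (-0.23). The prolyl isomerases Ppib (1609.8 to 1627.9, 0.02) and Fkbp2 (1258.7 to 1190.8, -0.08) were near level, as was Erp29, a redox-inactive relative of the disulfide isomerases (423.8 to 392.2, -0.11).

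The disulfide enzymes had the lowest median of the 3 classes, -0.28 over 10 genes, with 8 below 0. Below 0 were 45.1% of all measured genes and 55.6% of those in the brightest quartile. The median was -0.29 over all 18 of their measured probe sets, of which 16 were below 0. These probe sets belong to the same 10 genes and are not separate evidence. With 10 genes on 1 pair of arrays, the difference from the chaperones and the degradation genes was not tested, and the ranges of all 3 classes overlapped.

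The oxidases and the protein that retains them in the early secretory pathway had ratios below 0 on every measured probe set. Ero1b, the ER oxidase enriched in pancreatic islets, which reoxidises disulfide isomerases, went from 1444.4 to 1061.9 (-0.44, 1.36-fold). Its second probe set went from 337.7 to 168.7 (-1.0), and its last one was at the floor on both arrays. Ero1a, the widely expressed oxidase, went from 306.4 to 237.9 (-0.37), and its others gave -0.27 and -0.24. Erp44, which retains ERO1 enzymes and unassembled secretory proteins by thiol bonds, went from 754.4 to 522.3 (-0.53, 1.44-fold) and from 114.0 to 56.3 (-1.02) on its second probe set. With the median of all measured probe sets as a gene's value, Ero1b was at -0.72 and Erp44 at -0.77, both past 1.5-fold.

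Of the 5 isomerases of the PDI family proper, 4 had ratios below 0. P4hb, the founding disulfide isomerase, went from 2636.5 to 2226.9 (-0.24). Pdia3, which works with calnexin and calreticulin on glycoproteins, went from 2827.2 to 2365.3 (-0.26). Pdia6 went from 1572.1 to 1272.6 (-0.30), with -0.50 on a probe set near the floor, and Pdia5 from 457.8 to 347.5 (-0.40). Pdia4 was the exception, from 154.6 to 205.1 (0.41), and its second probe set was above the floor only in the knockout (31.8 to 46.3). Pdia3, P4hb and Pdia5 rest on 1 probe set each.

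The values of the other thioredoxin-domain proteins depended on the probe set. Dnajc10, an ER reductase that opens disulfides of proteins bound for degradation, went from 362.0 to 350.8 (-0.05) on the brightest, from 356.9 to 266.4 (-0.42) on one almost as bright and gave -0.08 on a dimmer one. Txndc5 went from 287.5 to 301.9 (0.07) on the brightest and from 316.6 to 260.1 (-0.28) on one almost as bright.

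**Figure D2:**
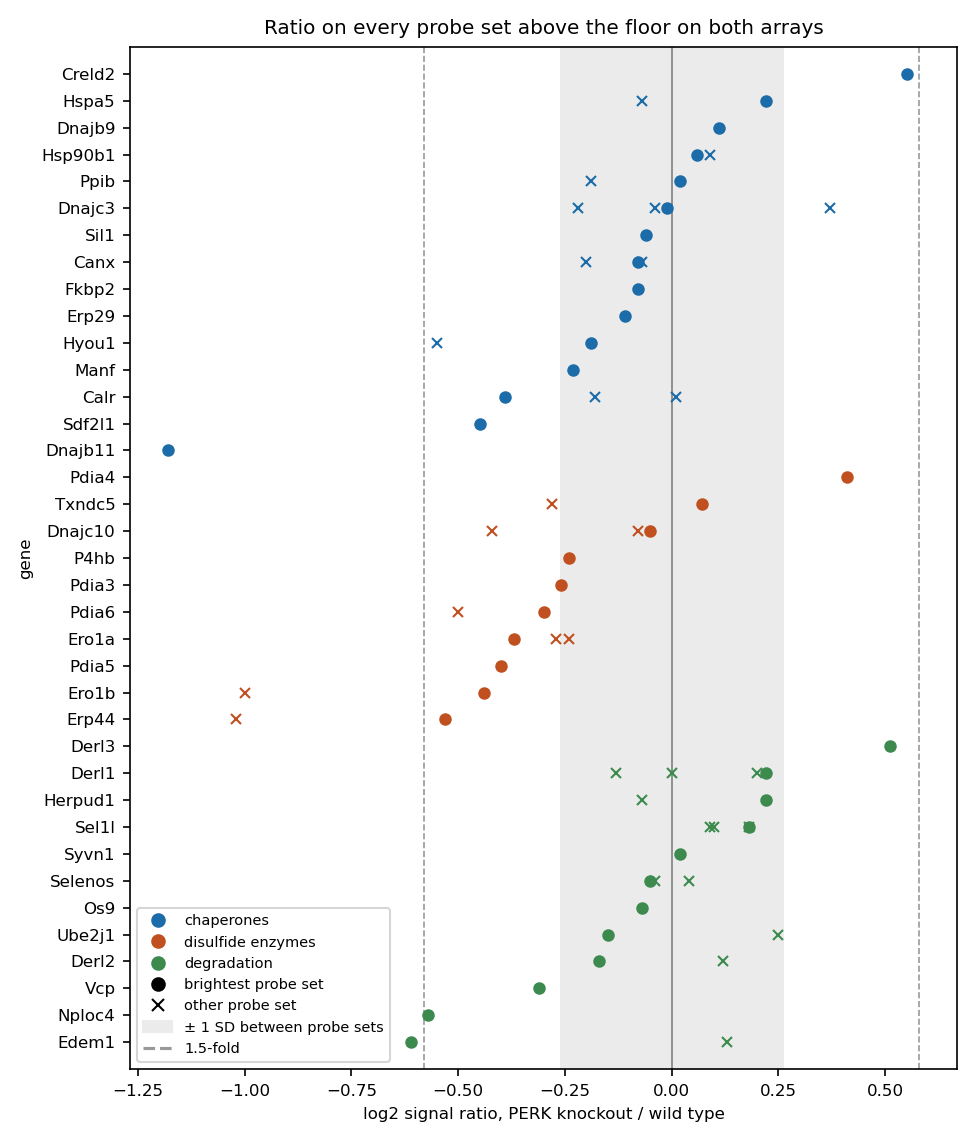
Log2 signal ratio, PERK knockout over wild type (x axis), for every probe set of the members (y axis) above the floor on both arrays; circles are the brightest probe set of a gene and crosses the others. The grey band is 1 SD of the disagreement between probe sets (0.26) and the dashed lines mark 1.5-fold; the second probe sets of Ero1b and Erp44 lie at -1.0 and -1.02, and that of Edem1 on the other side of 0 from its brightest.

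The degradation genes were centred near 0, with a median of -0.06 over 12 genes, 7 of them below 0, and of 0.03 over their 24 measured probe sets. The membrane core of the pathway, built on the ubiquitin ligase Syvn1 and its adaptor Sel1l, showed little difference. Syvn1 went from 378.6 to 384.2 (0.02). Sel1l went from 180.6 to 204.3 (0.18), and all 4 of its probe sets were above 0, between 0.09 and 0.18. Herpud1, which organises the ligase complex, went from 647.7 to 752.4 (0.22), with -0.07 on an equally bright probe set (646.3 to 615.7).

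The 3 derlins, membrane proteins that form part of the retrotranslocation route, did not move alike. Derl3, the family member most typical of secretory cells, went from 352.3 to 502.9 (0.51, 1.43-fold) on its only probe set. Derl1 went from 667.5 to 776.2 (0.22), and its 3 others lay between -0.13 and 0.20. Derl2 went from 331.2 to 294.3 (-0.17), with 0.12 on its second.

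Recognition and extraction factors included the lowest values of this class. Edem1, which promotes mannose trimming of misfolded glycoproteins, went from 176.6 to 115.4 (-0.61, 1.53-fold lower), but its second probe set went from 119.0 to 129.8 (0.13). Taking the median of both gave -0.24, short of 1.5-fold. Os9, the lectin that reads trimmed glycans, went from 328.4 to 313.8 (-0.07).

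The ATPase of the cytosolic extraction machinery and its cofactor had ratios below 0. Vcp, the ATPase that pulls substrates from the membrane, went from 934.8 to 756.2 (-0.31), and Nploc4, its ubiquitin-binding cofactor, from 215.7 to 144.8 (-0.57, 1.49-fold). Each had 1 measured probe set. Selenos, which links Vcp to the membrane, went from 1094.1 to 1056.0 (-0.05), and the ubiquitin-conjugating enzyme Ube2j1 from 294.6 to 265.2 (-0.15), with 0.25 on its second.

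Set against the promoter elements, the 10 ERSE genes spread around 0. Their median was 0.00, with 5 below 0 and 5 above, from Ero1b at -0.44 to Creld2 at 0.55. The 22 genes whose windows held no exact ERSE had a median of -0.16, with 16 below 0. Over all 8133 measured genes the median was 0.03 and 45.1% were below 0. All 14 measured genes with an exact ERSE, members or not, had a median of 0.0. The ERSE-II pair lay far apart, with Dnajb11 at -1.18 and Herpud1 at 0.22. These are descriptions of 1 pair of arrays and were not tested.

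**Figure D3:**
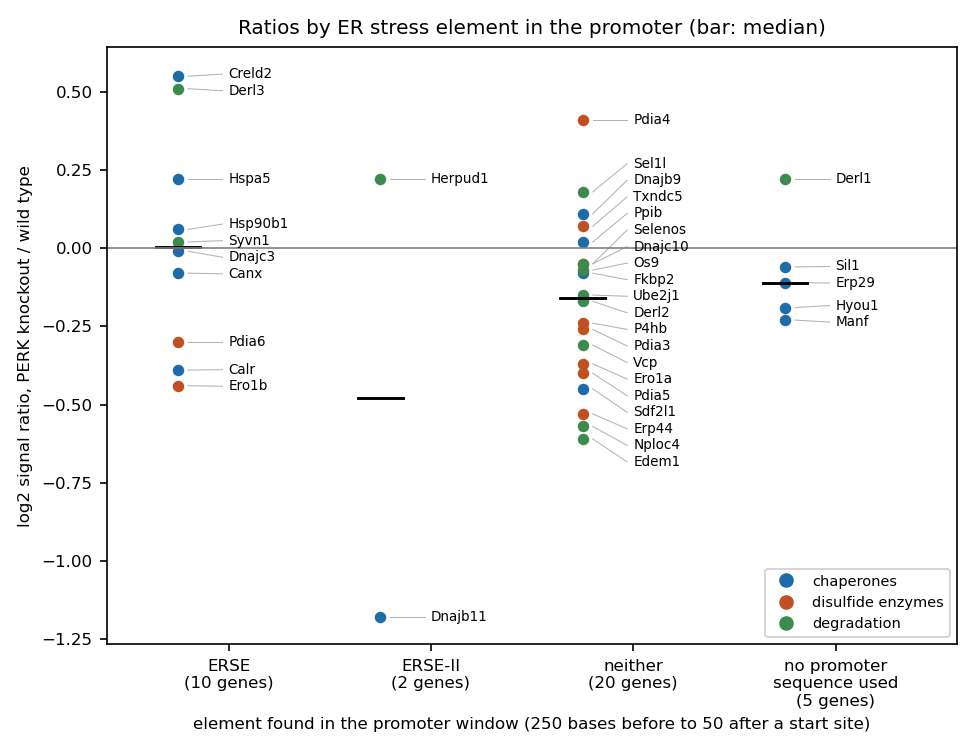
Log2 signal ratio, PERK knockout over wild type (y axis), of each measured member, grouped by the element found in its promoter window (x axis) and coloured by role; bars are medians. The 10 ERSE genes have a median of 0.00, the 20 genes with neither element -0.16, and 5 genes had no promoter sequence used.

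The 4 other lists of ER quality control genes had medians between -0.12 and -0.02. Of 14 measured further oxidoreductases, 9 were below 0 with a median of -0.09, and Txndc11 (101.8 to 60.3, 1.69-fold) and Gpx8 (245.1 to 152.0, 1.61-fold), an ER peroxidase, were at least 1.5-fold lower, each on 1 probe set. Glycan trimming enzymes and lectins had 9 of 12 below 0 and a median of -0.12, with the cargo receptor Lman1 at -0.31 and its partner Mcfd2 at -0.25, and Uggt2 was above the floor only in the knockout. Lman1's 3 other probe sets lay between -0.86 and 0.05. Further ER chaperones and prolyl isomerases had 6 of 12 below 0 and a median of -0.02, with Sdf2 at 0.11 and Fkbp9 at -0.32, whose second probe set gave -0.63. Further degradation genes had 13 of 25 below 0 and a median of -0.02, with Ube2k, a ubiquitin-conjugating enzyme, at -0.41 and the ligase Stub1 at -0.13, whose second probe set gave -0.39. Outside the ER, cytosolic and mitochondrial chaperones had 20 of 28 below 0 and a median of -0.08, equal to that of the members, with Hspa8 at -0.07 (0.31 to 0.33 on its 3 others) and Cct2 at 0.14 (0.13 and 0.38 on its others).

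**Figure D4:**
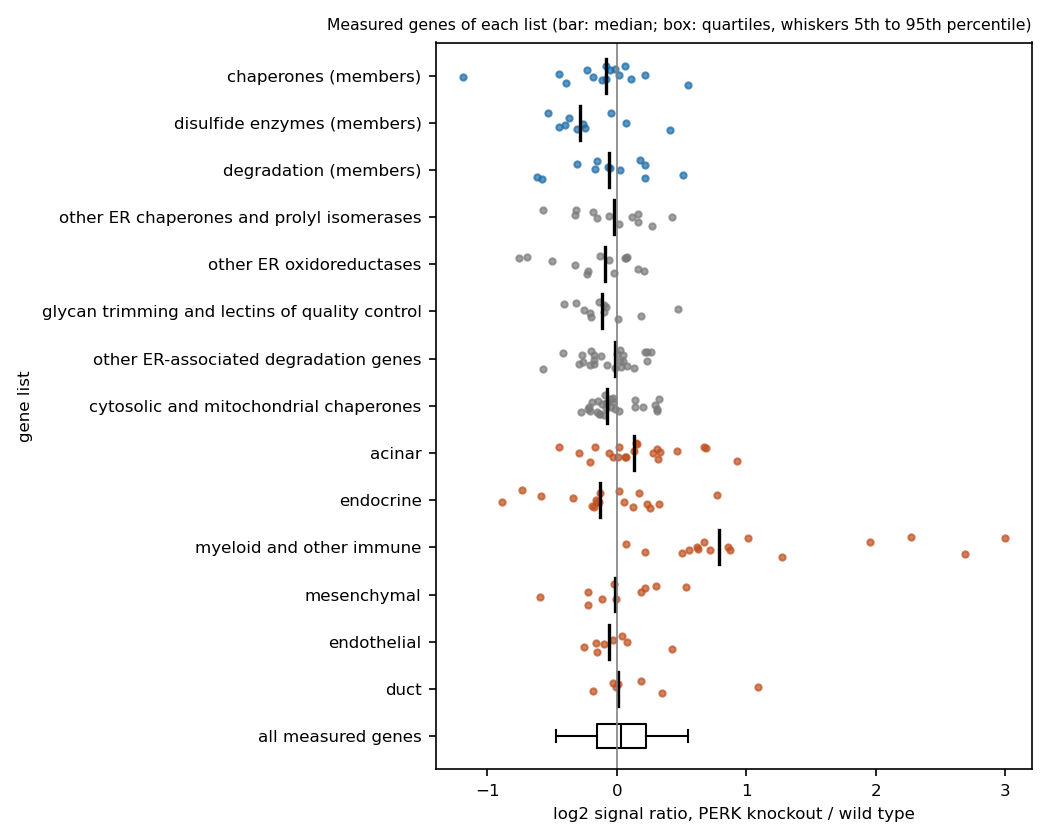
Log2 signal ratio, PERK knockout over wild type (x axis), of the measured genes of each list (y axis): member classes in blue, other chaperone and quality control lists in grey, cell type markers in orange, with a bar at each median. The disulfide enzymes have the lowest median of the lists shown (-0.28) and the immune markers the highest (0.79), and the box gives all 8133 measured genes.

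Facts of the 2 preparations bear on how these values read. Eif2ak3 went from 117.7 to 58.7 (2.01-fold lower) on its 1 measured probe set. All 18 endocrine markers named were measured, with summed signals of 64495 and 65247 and a median of -0.13. Of these, 2 were at least 1.5-fold lower (lowest -0.89) and 1 was at least 1.5-fold higher (0.78). The shares over all measured genes were 2.95% and 4.19%. Acinar markers, from exocrine cells rich in ER, were bright in both, with summed signals of 52653 and 55110. Of 21 measured, 15 were above 0, with a median of 0.14. At least 1.5-fold higher were 3 of them (to 0.92), and 0 were 1.5-fold lower. The transcription factor Rbpjl was at the floor on both arrays. Immune markers summed to 1996 and 5028, and all 16 measured were above 0 with a median of 0.79. Among them were S100a8 (7.98-fold higher), S100a9 (6.44-fold), Ngp (4.82-fold), Lcn2 (3.87-fold), Lyz1 (2.42-fold) and H2-Aa (2.01-fold). The second probe sets of Lyz1 and H2-Aa gave lower log2 ratios, 0.32 and 0.69. A further 4 immune markers were above the floor only in the knockout, with Camp at least 3.93-fold and C1qc at least 2.70-fold higher. Of 7 B and plasma cell markers named, only Ighm was measured (0.08, with -0.32 on its second probe set). A further 3 were above the floor only in the knockout, and Jchain, Pou2af1 and Vpreb1 were at the floor on both. Mesenchymal, endothelial and duct markers had medians of -0.02, -0.06 and 0.01, with Tspan8 of the duct list 2.13-fold higher. The other 2 measured probe sets of Tspan8 gave lower log2 ratios, 0.57 and 0.65. Beta-actin control probe sets at the 3′ and 5′ ends, whose ratio reflects the length of the labelled cRNA, gave a ratio of 1.61 for wild type and 2.01 for knockout, and those of Gapdh gave 1.01 and 0.867. The part of cell makeup and RNA length in the members' ratios was not tested, and in whole islets fewer cells of a type and less RNA per cell cannot be told apart.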

How the data were processed

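The authors deposited 1 linear signal intensity per probe set for each of 2 arrays; GCOS 1.02 is named in the submitters' processing notes, and how background was corrected and probes were summarised is not stated there. Both arrays had a 2% trimmed mean of 150.1, so they had been scaled before deposit. That mean was set equal (factor 1.00), a floor at the 40th percentile of the pooled signals (39.8) replaced every lower value, and the ratio of knockout to wild type was put on a log2 scale. Probe sets were named from the platform annotation: 20380 had 1 gene symbol, of which 20351 matched a gene of the RefSeq table of GRCm38.p6, and 691 had several and were not used. Of 12393 genes, 8133 were measured, 693 were above the floor on 1 array and 3567 on neither.

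With 1 array per genotype no p-value was computed, and calls are by size (1.5-fold and 2-fold). The number of arrays limits the precision. The members and lists were chosen with earlier results of these data known. Named genes are all members and Eif2ak3. In each other pathway list, those at least 1.5-fold apart were named, or the 2 brightest where none was. Among the markers, those at least 2-fold apart and Ighm were named. Some genes at the floor on 1 or both arrays were also named. Measured markers not named in the text were within 2-fold. The probe set SD was computed from the differences between the ratios of the 2 brightest measured probe sets of each gene, scaled to the error of 1 of them. Promoter sequences are from RefSeq (GRCm38.p6); protein sequences were not used here. The procedure was run on simulated arrays, made from the wild-type array with known folds and noise of the size of the probe set SD. These hold no differences between animals or preparations, so they check the calculation only. Python 3.11.15, pandas 2.3.3 and statsmodels 0.14.6 were used.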

Additional observations from a re-analysis of the deposited data

How the results depend on the processing

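A total of 9 alternatives were run. Rescaling was left out or done by median centring, loess or quantile normalisation. The floor was set at the 25th or 60th percentile, or a pseudocount of 16 took its place in the ratio. With the pseudocount, the floor still decided which genes counted as measured. Each gene's median over its probe sets was taken, or the _x_at, _s_at and _a_at probe set types were left out. Genes with no other type kept theirs. Median centring moved the medians to -0.18 for all members, -0.18 for the chaperones, -0.38 for the disulfide enzymes and -0.16 for the degradation genes, and gave 4 members at least 1.5-fold lower, by its construction, since it lowers every ratio alike. The pseudocount, which shrinks ratios of dim genes, left 1 member 1.5-fold lower, Edem1 going to -0.55. Quantile normalisation put 1 member, Creld2, 1.5-fold higher, at 0.61. It and loess each gave 3 members 1.5-fold lower, with Nploc4 at -0.61 and -0.62. The median over probe sets also gave 3, with Ero1b and Erp44 in and Edem1 out. The share of all measured genes at least 1.5-fold lower also moved, from 2.95% in the main setting. It was 4.45% with median centring, 2.18% with the pseudocount and 3.6% with quantile normalisation. With loess it was 3.63%, and with the median over probe sets 2.46%. At least 1.5-fold higher with quantile normalisation were 3.24% of all measured genes. The disulfide enzymes' median lay between -0.38 and -0.27 over all settings. Over the main setting and the 9 alternatives 22 of 37 members were below 0 throughout and 6 above, and 9 had both signs or reached 0. No rescaling and the floors at the 25th or 60th percentile left every member's ratio as it was. The median over probe sets could not change the 17 members with 1 measured probe set. Leaving out the _x_at, _s_at and _a_at types could not change members with no other type, such as Hspa5, Calr and Derl3. Without the shared-sequence probe set types, Derl1 was at -0.13, Herpud1 at -0.07 and Hyou1 at -0.55. Dnajb11 stayed between -1.28 and -1.14. No paired analysis was possible because each genotype has 1 array and no result comes from a test. The brightest probe set of every measured member lay above the floor on both arrays, and values also depend on the probe set chosen.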

Other observations

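Of the 37 genes in the whole promoter table with an exact ERSE, 27 were not among the members described above, and 19 of these had no probe set named here. The 4 that were measured were named after their values were seen: Alg12, a mannosyltransferase of N-glycan assembly, went from 135.1 to 113.3 (log2 ratio -0.25), Spats2l from 109.0 to 83.8 (-0.38), Adcy3, an adenylate cyclase, from 92.8 to 95.1 (0.04) and Pan2, a subunit of a deadenylase, from 64.1 to 66.1 (0.04).

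The ERSE of Alg12 and that of Creld2 are the same bases, at chr15:88819520-88819538 (GRCm38.p6), since the genes are transcribed away from each other with RefSeq start sites 328 bases apart. Creld2 had the highest ratio of all members, 0.55 on its only probe set, while Alg12 was at -0.25.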
